A study of Homo sapiens with 6 samples.

Results

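The 143 genes described here are the ZNF genes of human chromosome 19, the rows whose gene name is ZNF followed by a number, with or without a closing letter, and whose deposited position lies on that chromosome. They were chosen by name and position alone, with no use of expression, and make up 143 of the 18678 genes in the table. Expression was measured by mRNA sequencing in Cal27, an established line of tongue squamous cell carcinoma, and in Cal27-shGRK2, which is Cal27 with a short hairpin RNA against the receptor kinase GRK2. Both groups were grown in DMEM with fetal bovine serum and harvested before confluence. The labels name 3 libraries per group, and they give neither a control vector for Cal27 nor the number of hairpins or clones. Replicates 0 and 1 of Cal27-shGRK2 had the same value in each of the 18678 genes and were counted as 1 sample, so 3 Cal27 libraries (replicates 0, 1 and 2) were compared with 2 Cal27-shGRK2 libraries (replicate 0, identical with 1, and replicate 2). The authors' deposited group value was within 0.1% of the mean of the columns in 13366 of the 13377 genes that averaged 1 FPKM or more, for Cal27. For Cal27-shGRK2 it was so in 487 genes against the mean of the distinct columns and in 365 against that of all 3, so the authors' group values for Cal27-shGRK2, and the calls made from them, rest at least in part on values other than these columns. Separate cultures are not mentioned in the labels, so p-values reflect no more than the spread between these samples, possibly a technical one.

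C2H2 zinc finger proteins bind DNA through tandem fingers, each of which contacts a few neighbouring bases. Most of those encoded in the tandem gene clusters of chromosome 19 also carry a KRAB domain, which recruits the corepressor TRIM28 (KAP1). TRIM28 in turn brings in the histone H3 lysine 9 methyltransferase SETDB1, HP1 proteins and the NuRD complex, and many KRAB zinc finger proteins are known for silencing transposable elements. The clusters grew by gene duplication, so neighbouring members often resemble each other in sequence.

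GRK2, listed as ADRBK1, had 55.3, 59.4 and 55.8 FPKM in the Cal27 libraries and 17.3 and 16.6 FPKM in the Cal27-shGRK2 libraries. FPKM count fragments relative to transcript length and to all mapped fragments, and no counts came with them, so depth is unknown. GRK2 fell by 1.69 ± 0.06 on the log2 scale (SE, n = 3 and 2, limma adjusted p = 3.8e-11), and an exact two-sided permutation test over libraries gave p = 0.1, the smallest that 3 against 2 allows. Of 11 squamous and general epithelial markers in the table, 10 reached 1 FPKM. Their summed level was 3326 to 3710 FPKM in Cal27, and in Cal27-shGRK2 it was 1471 and 1503 FPKM. The 2 blood and endothelial markers in the table, CD68 and CDH5, summed to 4.33 to 5.16 and to 11.3 and 10.3 FPKM, and the 3 neural and melanocyte markers to 16.4 to 18.8 and to 26.7 and 26.7 FPKM. Of the 4 fibroblast markers, COL1A1 reached 1 FPKM, and the 4 summed to 4.35 to 4.71 FPKM and to 4.46 and 4.38 FPKM. The full lists named 13 squamous and general epithelial, 8 blood and endothelial, 5 neural and melanocyte and 7 fibroblast markers. Those that the table lacks could not be assessed. No marker that the table holds was at 0 in every library, and the markers' part in the results below was not tested.

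The chromosome 19 ZNF genes were widely but weakly expressed in Cal27. Of the 143, 142 had a Cal27 mean of at least 0.1 FPKM, 111 of at least 1 FPKM, 42 of at least 5 FPKM, 13 of at least 10 FPKM and 3 of at least 20 FPKM. The most abundant was ZNF787, at 41.0, 44.8 and 37.4 FPKM in Cal27 against 34.9 and 40.4 FPKM in Cal27-shGRK2. ZNF146 followed, a protein also called OZF that consists almost wholly of zinc fingers, with a Cal27 mean of 36.2 ± 2.23 FPKM (SD, n = 3), then ZNF544 at 28.7 ± 2.24 FPKM. The Cal27 libraries of ZNF787 and ZNF146 overlapped in level, whereas those of ZNF544 lay below both. ZNF317, ZNF581 and ZNF444 came next, with Cal27 means of 15.3, 14.8 and 12.7 FPKM. The Cal27 libraries of ZNF317 spanned those of ZNF581, so the order of ZNF317 and ZNF581 is not resolved. They overlapped those of ZNF444, though within each Cal27 library ZNF317 was above ZNF444. All Cal27 libraries of ZNF581 lay above those of ZNF444. In the RNA of a whole culture, fewer cells of a type and less RNA per cell cannot be told apart.

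The test was limma's on log2(FPKM + 1), two-sided, for the 13377 genes whose mean over the 5 libraries reached 1 FPKM, with p-values adjusted over all of them (Benjamini-Hochberg) and 0.05 as the threshold. Of the 143 members 110 were tested, and their median Cal27 level was 3.74 FPKM, against 11.3 FPKM over all genes tested. In Cal27-shGRK2, 15 members fell, 2 rose and 93 did not pass. Of the 110, 6 had a mean under 1 FPKM in 1 group and were tested through the other, among them ZNF350 and the called ZNF599. Of the remaining 104, 14 fell and 2 rose, and their median log2 fold change was -0.08. The share past the threshold was 15.5% of the members tested, against 29.6% of all genes tested. By direction, 13.6% of the members were lower, against 14.6% of all genes, and 1.82% were higher, against 15% of all genes. At 1 to 10 FPKM, where 99 of the tested members lie, 14 members passed, against 28.1% of all genes of that level. Rescaled to a common total (TPM), 125 members were tested, of which 6 were higher and 10 lower. The other genes of chromosome 19 went from 91 higher and 104 lower as reported to 136 and 86 when rescaled. Without Cal27 replicate 2 the count of lower members was 8, and that of the chromosome's other genes was 87. Fits without a Cal27-shGRK2 library leave a lone library in that group and are described below by their medians. Shares over all genes are not given for these fits, so no change in count is read as particular to the members.

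The members' shift was small and mostly downward. Their median log2 fold change was -0.09, against -0.01 over all genes tested, and 81 of 110 members (73.6%) lay below 0, against 50.9% of all genes. In 3 tested members, ZNF350, ZNF114 and ZNF772, the fitted log2 fold change was at least 0.5 in size, as it was, with no filter, in 4 of the members under 1 FPKM (ZNF816, ZNF321P, ZNF799 and ZNF443). The 2 groups' libraries did not overlap in 48 members, 39 of them lower and 9 higher in Cal27-shGRK2 (43.6%, against 53.3% of all genes, of which 27.4% lower and 25.9% higher). Both Cal27-shGRK2 libraries lay below the Cal27 mean in 60 of the 110 members, above it in 15, and on either side of it in 35. Below in both were 54.5% of the members, against 40.7% of all genes tested. Above in both were 13.6%, against 38.6%. The median stayed below 0 under each of the 3 scalings tried, at -0.08 by median of ratios, -0.05 rescaled to a common total and -0.10 by quantile normalization.

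The downward shift was not equal in the Cal27-shGRK2 libraries. Summed over the 143 members, the level was 607, 653 and 634 FPKM in the Cal27 libraries, 566 FPKM in Cal27-shGRK2 replicate 0 and 611 FPKM in replicate 2. Replicate 0 was thus below every Cal27 library, while replicate 2 lay between Cal27 replicates 0 and 2. Measured against the Cal27 mean, the median member was at -0.14 on the log2 scale in Cal27-shGRK2 replicate 0 and at -0.03 in replicate 2, and at -0.04, 0.03 and 0.01 in the Cal27 libraries. The same medians over all genes tested were -0.03 and 0.02 in Cal27-shGRK2 and -0.02, 0.03 and -0.00 in Cal27. The members' median log2 fold change was -0.03 without Cal27-shGRK2 replicate 0 and -0.15 without replicate 2. For the other genes of chromosome 19 these medians were 0.003 and -0.03.

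**Figure D1:**
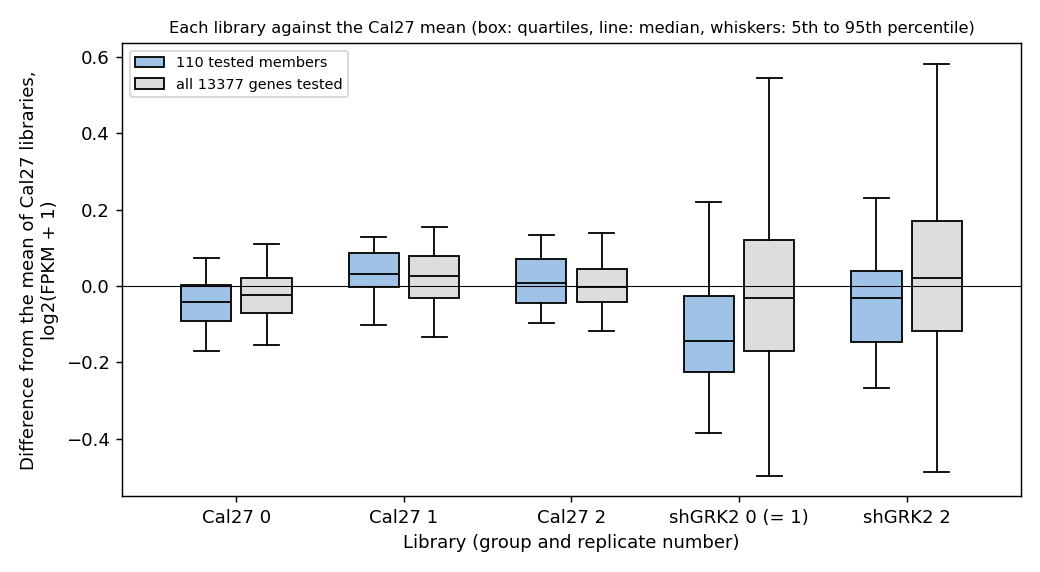
Difference of each library from the mean of the Cal27 libraries on the log2(FPKM + 1) scale, for the 110 tested members (blue) and for all 13377 genes tested (grey), with boxes for quartiles, lines for medians and whiskers from the 5th to the 95th percentile. The members' median is at -0.14 in Cal27-shGRK2 replicate 0 and at -0.03 in replicate 2, and the grey medians lie between -0.03 and 0.03.

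Sorted by start, the members fell into 18 positional groups separated by gaps of over 1000000 bases. Of these 9 held at least 5 members and 127 members together, and the other 9 held 16. The plot of fold changes in chromosome order shows the called members scattered over these groups, with no run of 3 or more neighbouring members called alike. Among 91 neighbouring pairs of tested members within a group, 66 (72.5%) had fold changes of the same sign, against 411 of 746 (55.1%) for the other genes of the chromosome. In 0 of the 91 pairs were both called in the same direction, against 36 of 746 (4.83%). More of the members than of the other genes lay below 0 (73.6% against 53.0%), which by itself raises the members' share of pairs alike in sign. Neighbours also share depth, annotation and often sequence, so these shares are descriptions.

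**Figure D2:**
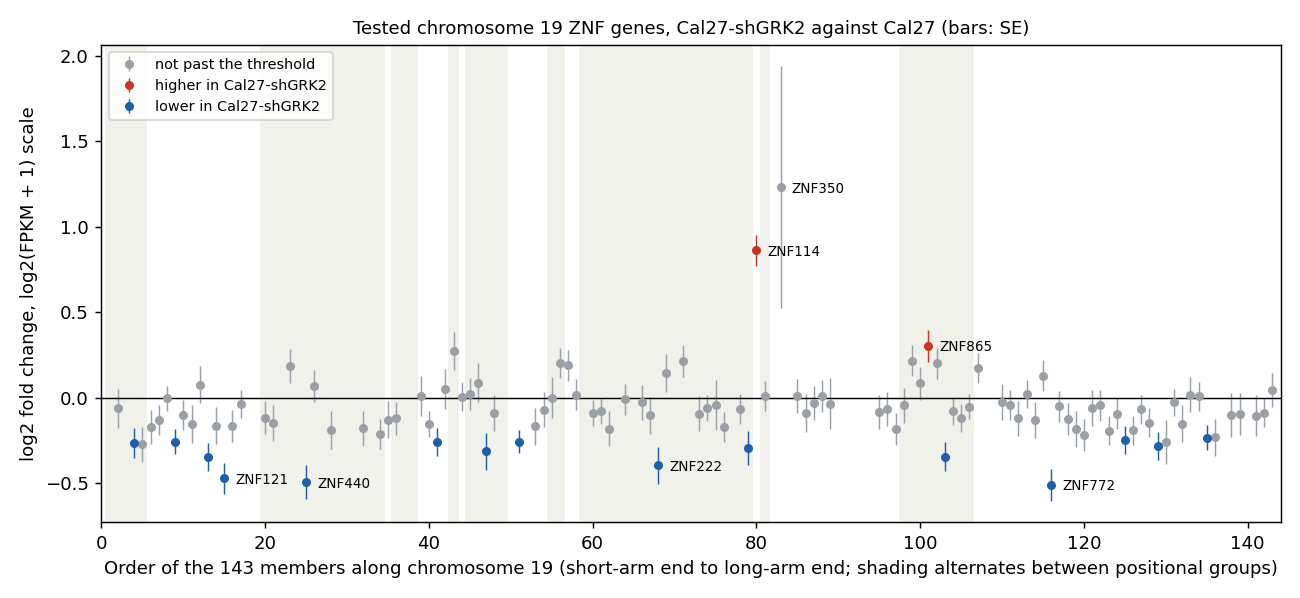
Log2 fold change of Cal27-shGRK2 against Cal27 on the log2(FPKM + 1) scale for the 110 tested members in their order along chromosome 19, with bars for the SE, red for the 2 members higher, blue for the 15 lower and grey for those not past the threshold. Shading alternates between positional groups, and ZNF350, at 1.23, has an SE of 0.71.

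Nearest the end of the short arm, the cluster from 2.82 to 2.94 megabases (hg38) held 5 members, of which 3 were tested. ZNF57 had 3.73, 3.72 and 3.70 FPKM in Cal27 against 2.81 and 3.04 FPKM in Cal27-shGRK2. Both Cal27-shGRK2 libraries lay below all Cal27 libraries, and the gene fell by 0.26 ± 0.09 (SE, limma adjusted p = 0.037). The call was lost when any single library was left out, when rescaled to a common total and with the replicate number as a block in the fit. Its neighbour ZNF77 had 2.23, 2.45 and 2.71 against 1.77 and 1.96 FPKM, also without overlap, and did not pass (-0.27 ± 0.10, limma adjusted p = 0.057). ZNF555, the other tested member, had libraries that overlapped (log2 fold change -0.06).

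The cluster from 7.07 to 9.79 megabases held 14 members, 12 of them tested, of which 3 fell and 0 rose. Their median log2 fold change was -0.16. The 30 other genes tested inside its bounds had a median of -0.06, with 4 higher and 4 lower. ZNF121 (ENSG00000197961.11, chr19:9560353-9584533, minus strand, protein coding) had 5.36, 4.73 and 5.51 FPKM in Cal27 against 3.27 and 3.66 FPKM in Cal27-shGRK2. The highest Cal27-shGRK2 library was thus below the lowest Cal27 library, and the mean was 1.50-fold lower (log2 fold change -0.47 ± 0.09, limma adjusted p = 0.0011). ZNF266 had 9.48, 10.5 and 10.0 against 7.10 and 8.20 FPKM, without overlap, and fell by 0.35 ± 0.08 (limma adjusted p = 0.0047). ZNF558 went from 10.5, 11.3 and 11.2 to 9.01 and 9.08 FPKM and fell by 0.26 ± 0.07 (limma adjusted p = 0.015). The calls of ZNF266 (adjusted p = 0.098) and ZNF558 were lost without Cal27-shGRK2 replicate 0, and that of ZNF558 also without replicate 2. ZNF317, the most abundant member of the cluster, had overlapping libraries and did not pass (-0.10, limma adjusted p = 0.44). Summed over the cluster, the level was 87.0, 94.8 and 88.6 FPKM in Cal27 against 77.5 and 81.5 FPKM in Cal27-shGRK2, without overlap.

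In the cluster from 11.48 to 12.64 megabases, 15 members were weakly expressed and 8 were tested, of which 1 fell and 0 rose. ZNF440 (ENSG00000171295.12, chr19:11814284-11835201, plus strand, protein coding) had 3.63, 3.77 and 3.48 FPKM in Cal27 against 2.02 and 2.57 FPKM in Cal27-shGRK2. Its libraries did not overlap, and the mean was 1.58-fold lower (log2 fold change -0.49 ± 0.10, limma adjusted p = 0.0015). The tested members nearest the long-arm side of the cluster, ZNF564 (-0.18) and ZNF791 (-0.21), also had lower libraries without overlap but did not pass (limma adjusted p = 0.21 and 0.088). Between ZNF440 and ZNF564 lie ZNF44, ZNF799 and ZNF443, which were under the expression filter and are described further on.

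Around the centromere and on the near long arm the members were sparse. ZNF431, in a group of 4 from 21.0 to 21.3 megabases, had 9.32, 8.15 and 9.003 FPKM in Cal27 against 7.36 and 7.03 FPKM in Cal27-shGRK2. It fell by 0.26 ± 0.08 (limma adjusted p = 0.024), a call lost when rescaled to a common total and without Cal27 replicate 0 or 2 or either Cal27-shGRK2 library. ZNF675, alone at 23.5 megabases, was higher in both Cal27-shGRK2 libraries, at 2.09 and 1.90 FPKM against 1.22, 1.57 and 1.69 FPKM, and did not pass (0.27 ± 0.11, limma adjusted p = 0.084). ZNF599, in the cluster from 34.7 to 35.0 megabases with 5 members and 4 tested, had 1.20, 1.33 and 1.23 FPKM in Cal27 against 0.726 and 0.902 FPKM in Cal27-shGRK2. It reached the filter of 1 FPKM only through Cal27, the group where it was higher. The log2 fold change was -0.31 ± 0.11 (limma adjusted p = 0.040). The call was lost when any single library was left out and with the replicate number as a block. ZNF146 (ENSG00000167635.11, chr19:36214602-36238774, plus strand) lies in the cluster from 36.2 to 37.4 megabases, with 5 members and 3 tested. Its level was 34.9, 34.8 and 38.7 FPKM in Cal27 against 28.9 and 31.2 FPKM in Cal27-shGRK2. The libraries did not overlap and the gene fell by 0.26 ± 0.07 (limma adjusted p = 0.011), a call lost without Cal27 replicate 2 or Cal27-shGRK2 replicate 0. ZNF146 overlaps ZNF565 in the annotation, and reads of the overlap could be assigned to either.

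The cluster from 43.5 to 45.1 megabases, known for KRAB zinc finger genes such as the transcriptional repressor ZNF224, held 21 members. Of its 15 tested members 2 fell and 0 rose, and 13 lay below 0 with a median of -0.08. The 19 other genes tested inside its bounds had a median of 0.03, with 5 higher and 2 lower. ZNF222 had 2.16, 2.64 and 2.90 FPKM in Cal27 against 1.79 and 1.60 FPKM in Cal27-shGRK2, without overlap. It fell by 0.40 ± 0.11 (limma adjusted p = 0.013), a call lost without either Cal27-shGRK2 library and with the replicate number as a block. ZNF296, at the far end of the cluster, had 4.81, 5.28 and 4.74 against 3.36 and 4.36 FPKM and fell by 0.30 ± 0.10 (limma adjusted p = 0.037). The groups did not overlap, and the call was lost under 7 of 14 alternatives. It was lost without Cal27-shGRK2 replicate 0 or Cal27 replicate 1 and when rescaled to a common total. It was also lost with no filter (pseudocount 1 or 0.1), without trend and robust settings and with the replicate number as a block. ZNF224 itself was higher in both Cal27-shGRK2 libraries, at 3.64 and 3.76 against 3.07, 3.33 and 2.80 FPKM, and did not pass (0.21 ± 0.09, limma adjusted p = 0.11).

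ZNF114 (ENSG00000178150.8, chr19:48270102-48287608, plus strand, protein coding), the only member of its positional group, had the larger of the 2 rises. The gene shares a locus entry with other rows and overlaps CTC-241F20.4 in the annotation, so the split of reads is uncertain. It had 2.49, 2.40 and 2.83 FPKM in Cal27 against 5.57 and 5.40 FPKM in Cal27-shGRK2. Each Cal27-shGRK2 library was far above every Cal27 library, and the mean was 2.13-fold higher, from 2.58 ± 0.227 (SD, n = 3) to 5.49 ± 0.121 FPKM (SD, n = 2). On the log2 scale the rise was 0.86 ± 0.09 (SE, limma adjusted p = 4.2e-06), and the call held under each of the 14 alternatives in which the gene was tested. Its next tested neighbour ZNF473, a factor of histone mRNA 3' end processing, had overlapping libraries, with a log2 fold change of 0.01 (limma adjusted p = 0.96).

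The cluster from 51.6 to 53.5 megabases held 16 members, of which 9 were tested and 0 passed in limma (at an unadjusted p under 0.05 the count was also 0). ZNF350, known as ZBRK1, a repressor that binds BRCA1, had the largest log2 fold change of the tested members on the log2(FPKM + 1) scale, and reached the filter through 1 library of Cal27-shGRK2. In ratios of mean FPKM the low members ZNF701, ZNF321P, ZNF468 and ZNF812, described further on, differed more. So did ZNF816, whose mean went from 0.699 FPKM to 0. The level of ZNF350 was 0.368, 0.588 and 0.605 FPKM in Cal27, 0.824 FPKM in Cal27-shGRK2 replicate 0 and 5.93 FPKM in replicate 2. Both Cal27-shGRK2 libraries were above every Cal27 library, but they differed from each other far more than the groups' nearest libraries did. The log2 fold change was 1.23 ± 0.71 (SE) and did not pass (limma adjusted p = 0.32). It passed without Cal27-shGRK2 replicate 0 (limma adjusted p = 2.5e-06), a fit that leaves replicate 2 as the lone library of its group and assumes that it varies like the others. In the authors' deposited table the group value of Cal27-shGRK2 for ZNF350 is 2.58 FPKM with q = 0.000612, whereas the 2 distinct columns have a mean of 3.38 FPKM.

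In the cluster from 55.5 to 56.2 megabases all 9 members were tested, 1 rose and 1 fell. ZNF865 had 4.88, 4.77 and 4.52 FPKM in Cal27 against 5.45 and 6.72 FPKM in Cal27-shGRK2 and rose by 0.30 ± 0.09 (limma adjusted p = 0.024), without overlap. The call was lost without Cal27-shGRK2 replicate 2 or Cal27 replicate 2 and with the replicate number as a block. ZNF580, a near neighbour of ZNF865, had 8.09, 8.87 and 7.97 against 5.88 and 6.77 FPKM and fell by 0.35 ± 0.08 (limma adjusted p = 0.0059). Its call was lost without Cal27-shGRK2 replicate 0 (adjusted p = 0.11). ZNF580 overlaps ZNF581 and CCDC106 on the annotation and shares a locus entry with them. ZNF581 had overlapping libraries (-0.08 ± 0.08, limma adjusted p = 0.48), as did the abundant ZNF787 (-0.12 ± 0.08, limma adjusted p = 0.32) and ZNF444 (-0.05, limma adjusted p = 0.65).

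The terminal cluster of the long arm, from 57.2 to 58.5 megabases, was the largest, with 37 members and 33 tested. Of these 4 fell and 0 rose, and 27 lay below 0 with a median of -0.10. The 12 other genes tested inside its bounds also had a median of -0.10, with 0 higher and 1 lower. ZNF772 (ENSG00000197128.11, chr19:57466663-57477570, minus strand, protein coding) had 4.15, 4.85 and 4.45 FPKM in Cal27 against 2.73 and 2.97 FPKM in Cal27-shGRK2. All Cal27 libraries were above both Cal27-shGRK2 libraries, and the mean was 1.57-fold lower (log2 fold change -0.51 ± 0.09, limma adjusted p = 0.00067), the largest fall among the tested members. ZNF587B had 5.69, 5.87 and 5.98 against 4.36 and 4.90 FPKM and fell by 0.28 ± 0.08 (limma adjusted p = 0.019). Its call was lost without Cal27 replicate 2 or Cal27-shGRK2 replicate 0. Its relatives beside it, ZNF587 (-0.03), ZNF814 (-0.26) and ZNF417 (-0.15), did not pass (limma adjusted p = 0.82, 0.15 and 0.33). These genes resemble each other and share a locus entry, so the split of reads between them is uncertain.

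ZNF551, also in the terminal cluster, had 6.77, 7.29 and 7.75 against 6.09 and 5.83 FPKM and fell by 0.25 ± 0.08 (limma adjusted p = 0.035). ZNF544 went from 26.2, 29.3 and 30.5 to 24.7 and 23.7 FPKM and fell by 0.23 ± 0.07 (limma adjusted p = 0.025). Neither overlapped between groups, but both calls were lost under 8 of 15 alternatives. Both were lost without either Cal27-shGRK2 library, without Cal27 replicate 1 or 2 and when rescaled to a common total. Both were also lost with no filter and with the replicate number as a block. That of ZNF544 was lost too without trend and robust settings, and that of ZNF551 with no filter and a pseudocount of 0.1. ZNF274, which recruits SETDB1 to the 3' ends of zinc finger genes, had 10.6, 12.7 and 11.9 against 12.6 and 11.0 FPKM and a log2 fold change of 0.01 ± 0.09 (limma adjusted p = 0.97). The cluster's summed level was 169, 188 and 181 FPKM in Cal27 against 159 and 168 FPKM in Cal27-shGRK2. The nearest libraries were close, at 169.4 FPKM in Cal27 replicate 0 and 167.8 FPKM in Cal27-shGRK2 replicate 2. ZNF544 alone differed by more between those libraries (26.2 against 23.7 FPKM), so the separation of the sums rests on that gene. The 14 tested members in the groups of fewer than 5 had 1 higher, 1 lower and a median of 0.01.

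**Figure D3:**
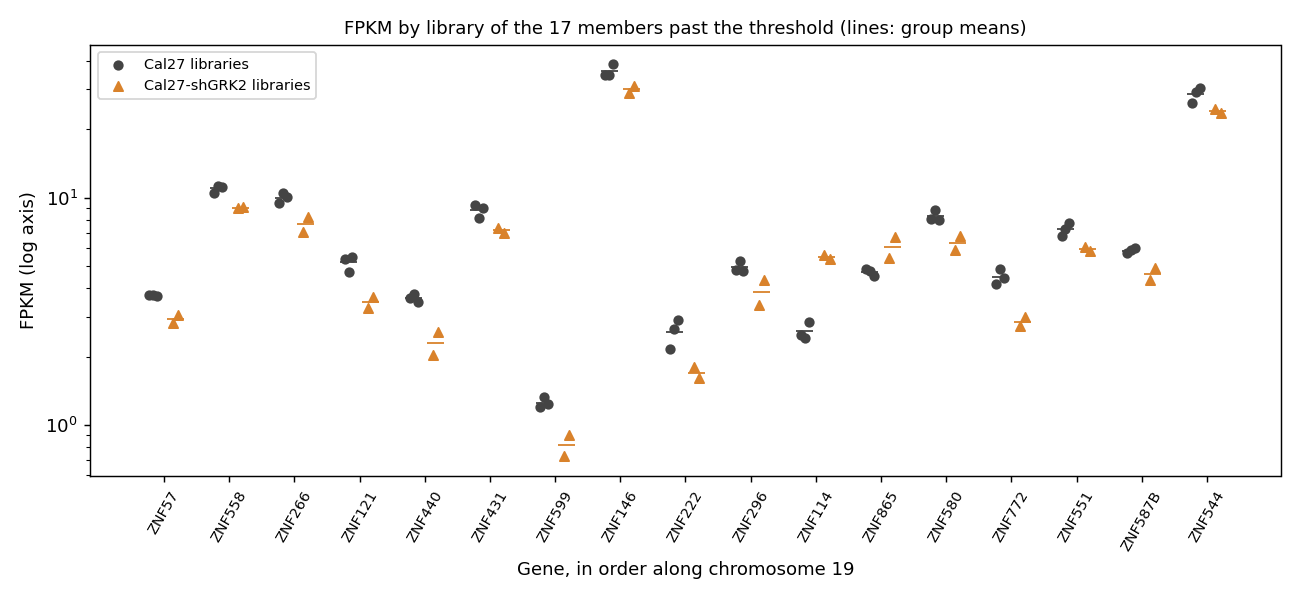
FPKM on a log axis in each library of the 17 members past the threshold, in chromosome order, with circles for the 3 Cal27 libraries, triangles for the 2 distinct Cal27-shGRK2 libraries and lines for the group means. The triangles lie above the circles in ZNF114 and ZNF865 and below them in the other 15.

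Of the 17 calls, 4 held under every alternative in which the gene was tested, those of ZNF114, ZNF772, ZNF440 and ZNF121. Without Cal27-shGRK2 replicate 0, 5 of the 17 remained called. Of the 17, 12 share a locus entry of the deposited table with another row, among them ZNF114 and ZNF772. In all, 81 of the 143 members share such an entry and 62 overlap another gene of the table in the annotation, on the same or the opposite strand. Among tested members that share an entry, 12 of 65 passed (18.5%), and among those alone in theirs, 5 of 45 (11.1%). Whether the counting used the strand is not stated in the sources used here.

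Below the filter, 33 members had a mean under 1 FPKM and were not in the tests above. Their libraries were lower in Cal27-shGRK2 without overlap in 11, higher in 6 and overlapping in 16, and 40.4% of all untested genes did not overlap. In a limma fit of all 18678 genes with no filter, 3 of the 33 passed as higher and 3 as lower. That fit called 21.9% of all genes and 11.7% of those under 1 FPKM. With a pseudocount of 0.1 in place of 1, a setting chosen after the data were seen that weighs low values more, 3 were higher and 5 lower, and 22.1% of all genes passed. Most of these members stand next to each other among the rows of the table, and they are named here after their values were seen.

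The lower ones, other than ZNF812, lie in the cluster from 51.6 to 53.5 megabases. There ZNF701, ZNF468, ZNF321P and ZNF816 follow one another with no other row of the table between them. Genes that the table lacks could lie in the gaps, such as that from 52587174 (end of ZNF701) to 52838008 (start of ZNF468). ZNF816 (ENSG00000180257.13, chr19:52949379-52962911, minus strand) had 0.579, 0.724 and 0.794 FPKM in Cal27, whereas both Cal27-shGRK2 libraries list it at 0. ZNF321P (ENSG00000213801.4, chr19:52927135-52942601, minus strand), annotated as a pseudogene, had 0.865, 0.829 and 0.794 FPKM and 0.0397 and 0.0455 FPKM. Both were detected at a low level in every Cal27 library and near or at 0 in both Cal27-shGRK2 libraries. They share a locus entry, so reads could be split between them, and an estimate of 0 can also be a failed estimate. Their log2 fold changes with no filter were -0.76 ± 0.09 for ZNF816 (limma adjusted p = 0.00032) and -0.81 ± 0.08 for ZNF321P (limma adjusted p = 0.00013), and both passed with any single library left out.

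ZNF468 had 0.133, 0.288 and 0.235 FPKM in Cal27 against 0.0147 and 0.0222 FPKM in Cal27-shGRK2. ZNF701 had 0.156, 0.171 and 0.147 FPKM in Cal27, 0.00522 FPKM in Cal27-shGRK2 replicate 0 and was listed at 0 in replicate 2. Neither overlapped between the groups. They did not pass with no filter and a pseudocount of 1 (limma adjusted p = 0.059 and 0.074) and passed with a pseudocount of 0.1, at log2 fold changes of -1.40 and -1.33 (limma adjusted p = 0.029 and 0.032). The next member along the chromosome, ZNF665, had higher values in Cal27-shGRK2, with 0.0761, 0.0672 and 0.0937 FPKM in Cal27 against 0.258 and 0.193 FPKM in Cal27-shGRK2. It did not pass with either pseudocount (limma adjusted p = 0.13 and 0.11). On the other side of ZNF701 the tested members ZNF480 (-0.04) and ZNF766 (0.01) had overlapping libraries.

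The 3 higher ones also follow one another with no other row of the table between them, in the cluster from 11.48 to 12.64 megabases. The gap from ZNF44 (end 12294887) to ZNF799 (start 12390016) could likewise hold genes that the table lacks. ZNF44 (ENSG00000197857.13, chr19:12224686-12294887, minus strand) had 0.574, 0.406 and 0.459 FPKM in Cal27 against 1.04 and 1.02 FPKM in Cal27-shGRK2. ZNF799 (ENSG00000196466.10, chr19:12390016-12401271, minus strand) had 0.128, 0.0772 and 0.115 against 0.493 and 0.686 FPKM. ZNF443 (ENSG00000180855.15, chr19:12429707-12441112, minus strand) had 0.141, 0.139 and 0.142 against 0.612 and 0.638 FPKM. In each, both Cal27-shGRK2 libraries were above every Cal27 library, and mean FPKM was 2.14-fold higher for ZNF44, 5.52-fold for ZNF799 and 4.44-fold for ZNF443. With no filter their log2 fold changes were 0.46 ± 0.09, 0.52 ± 0.09 and 0.51 ± 0.08 (limma adjusted p = 0.0072, 0.0026 and 0.0016). ZNF799 and ZNF443 passed with any single library left out, while ZNF44 did not without Cal27-shGRK2 replicate 0 (limma adjusted p = 0.053). ZNF799 and ZNF443 share a locus entry and resemble each other, so the split between them is uncertain. The other member past the threshold with no filter, the pseudogene ZNF812 at 0.205, 0.228 and 0.423 against 0.0448 and 0.0291 FPKM (limma adjusted p = 0.047), lost its call when any library but Cal27 replicate 0 was left out.

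**Figure D4:**
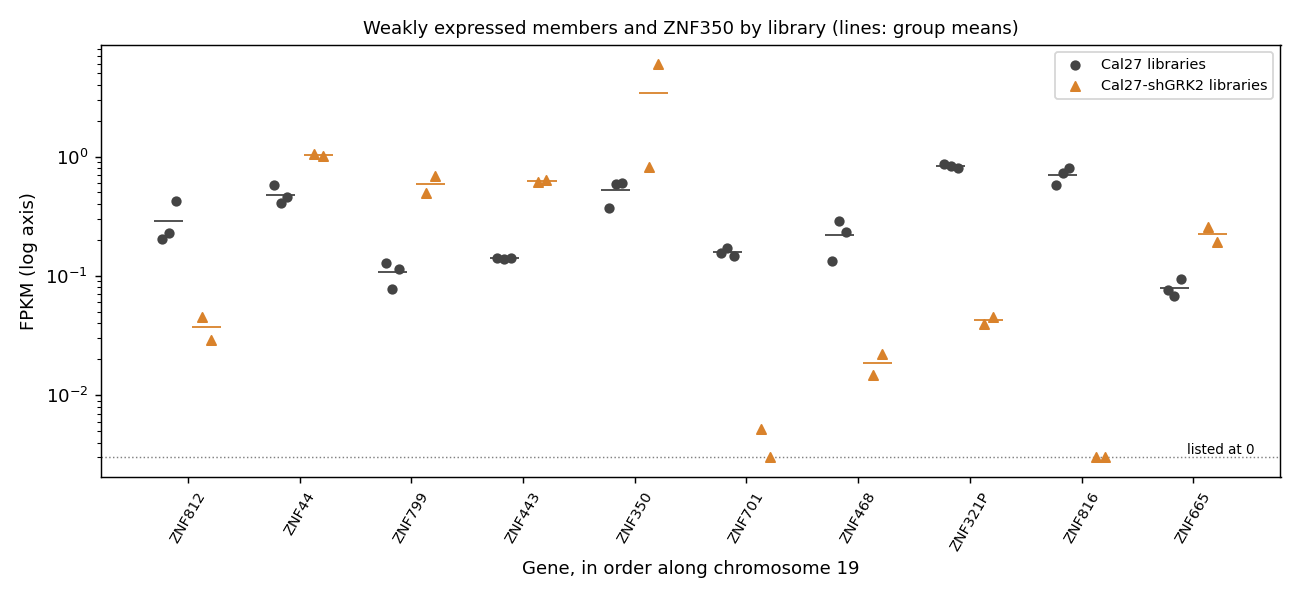
FPKM on a log axis in each library of ZNF350 and of 9 members with a mean under 1 FPKM, in chromosome order, with circles for Cal27, triangles for Cal27-shGRK2 and lines for group means (for ZNF701 and ZNF816 in Cal27-shGRK2 the mean is off the axis). The triangles of ZNF701, ZNF468, ZNF321P and ZNF816 lie far below the circles, those of ZNF816 on the dotted line for values listed at 0, and those of ZNF44, ZNF799, ZNF443 and ZNF665 above them.

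The upstream sequences of these neighbours were compared, since members of each stretch were lower or higher together. The 250 bases before the RefSeq gene start (GRCh38.p14, read on the gene's strand, 5' to 3') are shown for the members of the lower stretch that RefSeq's table holds, ZNF701 (chr19:52570037-52570286, plus strand), ZNF468 (chr19:52857620-52857869, minus strand) and ZNF816 (chr19:52962882-52963131, minus strand). Capitals mark GGGCGG or its reverse complement CCGCCC, the box bound by SP and KLF factors. The RefSeq start lies inside the GENCODE gene by 14830 bases in ZNF701 and by 32756 bases in ZNF468, whose outermost annotated transcripts begin farther upstream, but it is within 12 bases of a GENCODE transcript start in both. In the other genes shown it is within 91 bases of the gene's outermost start. The starts used in these cells were not measured.
ZNF701: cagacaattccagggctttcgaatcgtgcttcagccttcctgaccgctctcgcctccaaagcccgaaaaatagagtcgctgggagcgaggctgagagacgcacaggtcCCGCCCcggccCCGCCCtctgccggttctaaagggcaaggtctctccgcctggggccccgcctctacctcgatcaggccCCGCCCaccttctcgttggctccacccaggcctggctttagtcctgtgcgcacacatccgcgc
ZNF468: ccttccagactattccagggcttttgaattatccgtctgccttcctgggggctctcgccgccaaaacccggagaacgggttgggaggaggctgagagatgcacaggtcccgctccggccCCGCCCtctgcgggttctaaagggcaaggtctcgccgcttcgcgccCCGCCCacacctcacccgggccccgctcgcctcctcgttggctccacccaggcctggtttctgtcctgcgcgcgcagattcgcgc
ZNF816: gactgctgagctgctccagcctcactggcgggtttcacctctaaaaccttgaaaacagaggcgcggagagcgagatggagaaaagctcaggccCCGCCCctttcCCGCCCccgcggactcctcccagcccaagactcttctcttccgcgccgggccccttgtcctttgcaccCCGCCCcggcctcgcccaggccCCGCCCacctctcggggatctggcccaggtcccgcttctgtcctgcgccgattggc

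ZNF701 and ZNF468 were identical at 81.6% of the 250 bases in a global alignment with free ends, with a longest shared run of 24 bases. ZNF816 matched ZNF701 at 63.2% and ZNF468 at 62%. Over all 7875 pairs of members with a RefSeq promoter the median was 47.6% and the highest 92%. Those pairs include members of different clusters, whereas the pairs shown come from stretches picked after their values were seen. Neighbouring pairs that did not move together were not set apart. Whether identity goes with a shared direction was therefore not tested, here or in the higher stretch. Matches to the box numbered 3 in ZNF701, 2 in ZNF468 and 4 in ZNF816.

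For the higher stretch the same window is shown for ZNF44 (chr19:12294884-12295133), ZNF799 (chr19:12401272-12401521) and ZNF443 (chr19:12441022-12441271), all on the minus strand, with capitals for the same box.
ZNF44: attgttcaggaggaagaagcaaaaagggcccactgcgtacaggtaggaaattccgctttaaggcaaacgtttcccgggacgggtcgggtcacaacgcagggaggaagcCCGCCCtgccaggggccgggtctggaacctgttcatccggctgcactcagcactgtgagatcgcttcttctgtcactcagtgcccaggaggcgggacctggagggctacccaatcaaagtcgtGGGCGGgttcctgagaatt
ZNF799: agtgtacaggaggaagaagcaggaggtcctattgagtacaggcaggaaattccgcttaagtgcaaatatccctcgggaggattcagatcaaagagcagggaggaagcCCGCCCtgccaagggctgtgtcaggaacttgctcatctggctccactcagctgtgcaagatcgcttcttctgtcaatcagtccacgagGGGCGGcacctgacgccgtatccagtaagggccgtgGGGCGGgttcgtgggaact
ZNF443: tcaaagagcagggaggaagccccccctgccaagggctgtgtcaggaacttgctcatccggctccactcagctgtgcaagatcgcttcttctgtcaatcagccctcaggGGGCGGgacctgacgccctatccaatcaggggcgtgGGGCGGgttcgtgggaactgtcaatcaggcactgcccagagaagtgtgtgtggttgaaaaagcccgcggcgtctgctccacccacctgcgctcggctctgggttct

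ZNF44 and ZNF799 were identical at 76.4% of bases, and ZNF799 and ZNF443 at 60.8% with a shared run of 42 bases. ZNF44 and ZNF443 matched at 52.4%. ZNF440, the called member of the same cluster that fell, matched ZNF799 at 56%.

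Among the tested members with the largest falls, ZNF121 (chr19:9584505-9584754, minus strand) and ZNF772 (chr19:57477567-57477816, minus strand) are shown because their upstream windows differ in the motifs searched. Capitals mark the SP and KLF box and, near the start of ZNF121, GCCATCTT, a match to the YY1 motif GCCATNTT.
ZNF121: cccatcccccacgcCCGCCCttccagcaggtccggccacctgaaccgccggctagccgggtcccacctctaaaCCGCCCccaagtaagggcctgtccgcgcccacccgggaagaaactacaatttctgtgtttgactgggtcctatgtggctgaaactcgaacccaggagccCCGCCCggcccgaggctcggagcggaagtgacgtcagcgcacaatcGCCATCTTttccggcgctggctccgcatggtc
ZNF772: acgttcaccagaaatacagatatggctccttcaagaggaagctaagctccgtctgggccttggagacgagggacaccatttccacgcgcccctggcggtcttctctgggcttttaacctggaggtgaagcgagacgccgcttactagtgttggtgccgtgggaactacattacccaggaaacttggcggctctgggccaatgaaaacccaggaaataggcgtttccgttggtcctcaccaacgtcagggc

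ZNF121 held 3 SP and KLF boxes and 1 YY1 match, and ZNF772 held none of the motifs searched. Their identity was 42.8%, below the median of member pairs.

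Over the 300 bases from 250 before to 50 after the start, 126 of the 143 members had a RefSeq promoter, and 17, among them ZNF114, ZNF321P, ZNF665 and ZNF812, did not. The RefSeq start was within 100 bases of a GENCODE transcript start in 122 of the 126 and of the gene's outermost start in 93. Both strands were searched for 4 motifs, which can overlap one another. GGGCGG was found in 67.5% of the members' promoters, against 44.6% of all 27305 promoters and 71.2% of the promoters of genes tested. CCGGAAGT, the core of ETS family sites, was found in 26.2% of members, 4.44% of all promoters, 9.40% of promoters of genes tested and 16.6% of those of ZNF genes on other chromosomes. GCCATNTT was found in 15.1% of members, 6.82% of all promoters and 10.8% of promoters of genes tested. The palindromic NRF1 motif was found in 1.59% of members, 1.36% of all promoters and 2.37% of promoters of genes tested. The median GC content was 61% in the members, 58.3% in all promoters and 65.3% in promoters of genes tested. Among members the ETS core was found in 26.7% of the 15 promoters of those that fell and in 27.7% of the 83 of those that did not pass. In the same order, GGGCGG was found in 53.3% and 68.7%, GCCATNTT in 13.3% and 18.1%, and the NRF1 motif in 0% and 2.41%. These differences were not tested.

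The shift of the members was set beside that of related genes. ZNF genes of other chromosomes numbered 227, with 201 tested, of which 18 were higher and 23 lower (20.4%). Their median was -0.04, and 63.7% lay below 0. The other 1042 genes of chromosome 19 had 755 tested, 91 higher and 104 lower (25.8%), with a median of -0.02. The 125 other genes that lie inside the bounds of the members' clusters had 74 tested, 10 higher and 10 lower, with a median of -0.06. These sets differ from the members in level, with median Cal27 values of 4.71, 18.6 and 9.58 FPKM against 3.74 FPKM, and the differences between them were not tested. Of 5 ZFP, ZIK, ZIM, ZSCAN and ZBTB genes of the chromosome 4 were tested and 0 passed in limma (at an unadjusted p under 0.05 it was 1). That gene was ZSCAN5A, with 5.78, 8.59 and 7.94 against 5.01 and 5.59 FPKM (-0.41 ± 0.14, limma adjusted p = 0.059).

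The proteins that KRAB zinc finger proteins work with were looked at as a list. All 42 genes of a list of TRIM28 partners and heterochromatin factors were tested, of which 6 fell, 2 rose and 34 did not pass. The share lower was 14.3%, near the 14.6% of all genes tested, and the share higher was 4.76%, against 15%. Their median log2 fold change was -0.05, which became 0.01 when rescaled to a common total, where 5 were lower and 10 higher. TRIM28, which lies just beyond the terminal cluster (chr19:58544091-58550722, plus strand), had 258, 285 and 260 FPKM in Cal27 against 248 and 259 FPKM in Cal27-shGRK2. Its libraries overlapped, and the log2 fold change was -0.08 ± 0.06 (limma adjusted p = 0.39). SETDB1 had 12.4, 12.8 and 13.5 against 12.2 and 12.1 FPKM and did not pass (-0.08 ± 0.07, limma adjusted p = 0.44).

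The 6 that fell were KDM1A, RBBP7, CHD3, GATAD2B, MTA1 and RBBP4. KDM1A (LSD1), a histone H3 lysine 4 demethylase, had 403, 392 and 375 against 262 and 265 FPKM and fell by 0.56 ± 0.06 (limma adjusted p = 2.8e-06). The histone chaperone RBBP7 had 110, 107 and 105 against 80.7 and 87.2 FPKM and fell by 0.35 ± 0.06 (limma adjusted p = 0.00047). The remodeller CHD3 had 18.4, 18.5 and 18.4 against 14.9 and 14.9 FPKM and fell by 0.29 ± 0.07 (limma adjusted p = 0.0034). None of these 3 overlapped between groups, and their calls held under every alternative tried. GATAD2B (-0.36, limma adjusted p = 0.016), MTA1 (-0.21, 0.026) and RBBP4 (-0.18, 0.041) also fell, and these calls were lost without either Cal27-shGRK2 library. That of GATAD2B was also lost without Cal27 replicate 1 and with the replicate number as a block, and that of MTA1 without Cal27 replicate 2. That of RBBP4 was also lost without Cal27 replicate 0 or 2 and with no filter (pseudocount 1 or 0.1). It was lost too without trend and robust settings and when rescaled to a common total. CHD3, RBBP7, GATAD2B, MTA1 and RBBP4 encode NuRD subunits, and the list's other NuRD genes did not pass, with log2 fold changes of -0.02 for CHD4, -0.09 for HDAC1, -0.07 for HDAC2, -0.11 for MTA2, 0.12 for GATAD2A, -0.16 for MBD2 and -0.04 for MBD3. The 2 genes that rose were the de novo DNA methyltransferase DNMT3B, at 1.29, 1.32 and 1.19 against 2.18 and 2.01 FPKM (0.45 ± 0.10, limma adjusted p = 0.0034), and the methyl-CpG-binding protein MBD1 (0.26, limma adjusted p = 0.035). Both calls were lost without Cal27-shGRK2 replicate 0, and that of MBD1 also without replicate 2 and without Cal27 replicate 0 or 2. That of MBD1 was lost too by quantile normalization, with no filter (pseudocount 1 or 0.1) and without trend and robust settings. The count of fallen list members was 3 without either Cal27-shGRK2 library.

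The authors' deposited table marks 18 of the 143 members as significant (12.6%, against 15.4% of all 18678 genes), 6 higher and 12 lower. Of these 9 were among the members tested here, and 7 of them passed in limma. The other tested pair was ZNF77 (authors' deposited q = 0.0188) and ZNF350. The remaining 9 were under 1 FPKM, 3 higher and 6 lower, where 11.6% of all genes of that level are marked. They were ZNF44, ZNF443 and ZNF665, and ZNF701, ZNF468, ZNF321P, ZNF816, ZNF812 and ZNF556. Of the 17 members past the threshold in limma, 10 are not marked in the authors' deposited table.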

How the data were processed

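Cal27 and Cal27-shGRK2 libraries, made with a stranded mRNA kit, were grouped, and numbered as replicates, from their titles. The authors deposited FPKM per library. The submitters' processing notes name Cuffdiff 2.2.1, TopHat2 2.1.0, Bowtie2 2.2.6 and hg38, while no source used here gives the annotation. The same deposited table holds the authors' group values, log2 fold change, test statistic (a score that was not used) and p-values with q-values, per the file headers. An estimate of 0, written there as 0.0001, was read as 0. Members were matched by gene ID to GENCODE version 29 (143 of 143), and promoters were taken from RefSeq (GRCh38.p14) by symbol.

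Genes that averaged at least 1 FPKM in the 5 distinct libraries were fitted on log2(FPKM + 1). The tool was limma 3.58.1 in R 4.3.3, with trend and robust settings, tested on simulated data beforehand. Fold changes on that scale understate changes of low genes, and plain folds divide the groups' mean FPKM. Positional groups begin where the gap to the next member is over 1000000 bases. Upstream sequences were aligned globally, with free end gaps, with scores of 2 for a match, -1 for a mismatch, -5 to open and -1 to extend a gap.

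Members and lists were chosen with earlier results of these data known. Named are the called members with the largest changes (12 per direction), the 6 most abundant, the largest change in each cluster of at least 5, and up to 4 called corepressors per direction. ZNF558, ZNF551, ZNF675, ZNF224, ZNF473, ZNF274, the relatives of ZNF587B, the neighbours quoted beside a named gene, ZSCAN5A, MTA1, RBBP4, the other NuRD genes that did not pass and the members under 1 FPKM were named after their values were seen. Protein features were not analysed here.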

Additional observations from a re-analysis of the deposited data

How the results depend on the processing

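The members' count of higher genes, 2 as reported, was 5 with no filter, 5 with no filter and a pseudocount of 0.1 (an alternative chosen after seeing the data), 1 with a mean of at least 5 FPKM and 6 when rescaled to a common total, and 1 to 3 with a library left out. The count of lower genes, 15 as reported, was 8 with a mean of at least 5 FPKM, where 40 members were tested, and 3 to 13 with a library left out. The members' median log2 fold change was below 0 under every alternative run, and with a library left out the median of the chromosome 19 ZNF genes ranged from -0.15 to -0.032. For the corepressor list, 2 higher as reported became 1 with no filter, 1 with no filter and a pseudocount of 0.1, 1 with a mean of at least 5 FPKM, 10 when rescaled to a common total, 1 by quantile normalization, 1 with limma without trend and not robust, and 0 to 3 with a library left out. Its count of lower genes, 6 as reported, ranged from 3 to 5, and its median from -0.06 to -0.03, with a library left out. With a library left out, the log2 fold change of ZNF581 ranged from -0.18 to 0.013, and it changed sign without Cal27-shGRK2 replicate 0 (0.013, adjusted p = 0.95 in limma). Fewer genes were tested at 5 FPKM. With no filter 143 members were tested, and 3 of the 5 higher ones were members under 1 FPKM. When rescaled to a common total 125 members were tested. For the other moves the cause was not tested.

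The median of cluster 9 along the chromosome, at 34.7 to 35.0 megabases, was 0.07 when rescaled to a common total against -0.04 as reported. Nothing in the labels says that equal replicate numbers mark a shared culture or day. Same-numbered libraries correlated at 0.08 and 0.02 in their deviations from group means. With 2 Cal27-shGRK2 libraries their deviations mirror each other, so these correlations cannot decide whether the numbers mark pairs. With the number as a replicate block 10 members were lower and 2 higher, 10 of the 17 calls remained, and the members' median was -0.05. No counts came with the FPKM, so low values such as those of ZNF816 or ZNF443 carry an unknown counting error.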
